A study of Mus musculus with 8 samples.

Results

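The genes that encode the collagens, the laminin chains and fibronectin were followed in total RNA and in RNA bound to Argonaute (Ago) while mouse embryonic stem (ES) cells were turned into neural cells. The members were chosen by name alone, as every gene symbol on the array that starts with Col, a number, the letter a and a digit, or with Lama, Lamb or Lamc and a digit, or that is Fn1. This rule matched 54 of the 36163 gene names on the arrays. One of the 54, Col4a3bp, encodes a ceramide transfer protein and is no collagen, so it was left out of every count, which leaves 53 matrix genes read by 77 probes. Of these 53 genes, 41 are collagens, 11 are laminin chains and 1 is fibronectin.

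These proteins form the scaffold around animal cells. Laminins are trimers of an alpha, a beta and a gamma chain that bind integrins and dystroglycan and seed the basement membrane, the sheet on which the early epiblast and later the neural tube rest. Type IV collagens form the network that stabilizes that sheet, fibrillar collagens such as types I, II, III and V build fibrils, and fibronectin is a soluble and fibril-forming adhesion protein. Ago proteins carry microRNAs (miRNAs) to matching messengers as the core of the RNA-induced silencing complex (RISC), and the miR-29 family is a textbook repressor of collagen messengers.

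All samples came from the line E14Tg2A, ES cells of the 129/Ola strain, so each stage is the same single line, with no gene altered between the stages. ES cells (day in vitro, DIV, 0) grew without feeder cells on gelatin in medium with serum and leukemia inhibitory factor. Epiblast-like aggregates (ELA, DIV 2) floated on agar in chemically defined minimal medium with N2/B27, neural progenitor cells (NPC, DIV 6) were then replated on poly-ornithine and mouse laminin in the same medium, and NPC/Neu cells (DIV 10) were replated once more on that coating without B27. The laminin coating was added protein, so it does not contribute to the RNA measured here, but it means that only the ES and ELA stages grew without added laminin. At each stage 1 array measured total RNA and 1 array measured RNA that came down with a pan-Ago antibody from the cytosolic fraction, called Ago–RNA.

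Each of the 8 arrays held RNA pooled from 3 experiments according to the labels, there was 1 array per condition, and no p-value can therefore be given. A change is called here when it reaches 2-fold, that is 1 on the log2 scale, which describes these arrays only. The only error that could be measured was that between repeat spots of one probe on the same array. It had an SD of 0.13 to 0.18 (log2) for a change in total RNA, 0.13 to 0.15 for the ratio of Ago–RNA to total RNA and 0.18 to 0.21 for the change of that ratio between neighbouring stages, over 399 probes. The arrays were of similar brightness except that of ES Ago–RNA, whose upper-quartile spot intensity was 3039 against 1060 to 1774 on the other 7, and all 8 were brought to a common distribution before any comparison. No array is of a control immunoprecipitation, so RNA that came down without Ago cannot be told apart from RNA bound to it. Some stage markers followed the labels and others did not. Pou5f1, the pluripotency factor, had log2 total RNA signals of 15.21, 14.76, 7.98 and 8.31 in ES, ELA, NPC and NPC/Neu cells, the epiblast marker Fgf5 peaked in ELA cells at 14.78, and the neural genes Hes5 and Tubb3 reached 16.28 in NPC cells and 17.01 in NPC/Neu cells. From NPC to NPC/Neu cells, however, 3 of 7 pluripotency markers rose at least 2-fold and 0 fell, against 5.36% and 3.96% of all genes. Esrrb rose most, from 9.59 to 11.55. Otx2, another epiblast marker, hardly moved, with 15.53, 16.06, 15.91 and 15.97.

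In total RNA, 39 of the 53 matrix genes had a probe well above background in ES cells, 32 in ELA cells, 39 in NPC cells and 42 in NPC/Neu cells. In Ago–RNA the numbers were 45, 31, 40 and 44. On all 8 arrays 27 genes were well above background, while Col13a1, Col19a1, Col24a1, Col28a1 and Col6a6 were so on none and Col8a1 was so in no total RNA sample. A gene enters a comparison below when it was well above background on at least 1 of the arrays compared (for a change of ratio, on at least 1 array of each stage), so a gene seen at 1 stage only enters because it was bright there. Of the 77 probes, 50 lie in a 3′ UTR, 25 in a coding exon and 2 outside the annotated gene.

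Since Ago finds messengers through the seed of the miRNA it carries, the seeds searched for in these genes are shown first. The mature sequences are those of RefSeq (GRCm38.p6), 5′ to 3′, with the seed, bases 2 to 8, in capitals. The 3 members of the miR-29 family share 1 seed. The let-7 seed stands for a family abundant in differentiated cells and the miR-294 seed for the family most abundant in ES cells.
mmu-miR-29a-3p: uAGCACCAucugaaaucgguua
mmu-miR-29b-3p: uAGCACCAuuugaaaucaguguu
mmu-miR-29c-3p: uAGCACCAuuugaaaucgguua
mmu-let-7a-5p: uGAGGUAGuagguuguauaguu
mmu-miR-294-3p: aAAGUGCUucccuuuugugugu

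The complement of the miR-29 seed, TGGTGCT, was found in the annotated 3′ UTR of 24 of the 53 genes (45.3%), at 39 sites in all, against 12.2% of the 18559 genes with an annotated 3′ UTR. The median 3′ UTR was of similar length in the matrix genes (881 bases) and in all genes (861 bases). The let-7 complement was found in 8 matrix genes (15.1%, against 8.45% of all genes) and that of miR-294 in 7 (13.2%, against 13.4%). A match is a stretch of letters, not a shown site of binding. Col5a1 and Col4a3 held 4 matches to miR-29 each, Col4a5 and Col5a3 held 3, and among the laminin chains and fibronectin only Lamc1 held one. The sites below belong to genes described in the sections that follow, chosen after their values were seen to show sites in genes that rose, fell or stayed level. All 3 sites of Col4a5 are shown, 1 of 4 of Col5a1, 1 of 2 of Col4a2, Col7a1, Col11a1 and Col22a1, and the single site of each other gene. They were read on the gene's strand from the mouse genome NCBIM37 (mm9), with the match in capitals and the position of the match before each.
Col1a1, chr11:94813852-94813858, plus strand: gggtggggtgggaaggaatttcTGGTGCTa
Col2a1, chr15:97806113-97806119, minus strand: agggactgcgtgtcctacacaaTGGTGCTa
Col3a1, chr1:45405827-45405833, plus strand: ttccaacttcaaaatgtctcaaTGGTGCTa
Col4a1, chr8:11199762-11199768, minus strand: cgcctctgccaccgtcacaacaTGGTGCTa
Col4a2, chr8:11448359-11448365, plus strand: cagctgtgtgggaaggccacgtTGGTGCTt
Col4a5, chrX:138122796-138122802, plus strand: cctttaccactgctcccaccaaTGGTGCTa
Col4a5, chrX:138123077-138123083, plus strand: tttgaggaagtattctttttcaTGGTGCTa
Col4a5, chrX:138123500-138123506, plus strand: taattaataattcttattattcTGGTGCTa
Col4a6, chrX:137601058-137601064, minus strand: tgctttcctgtttccatccatcTGGTGCTa
Col5a1, chr2:27893554-27893560, plus strand: aattttttacacttgtctcttgTGGTGCTa
Col7a1, chr9:108886640-108886646, plus strand: ccgggtcctgctgtgctccattTGGTGCTa
Col11a1, chr3:113922001-113922007, plus strand: ccttttcctatttggatttcgtTGGTGCTg
Col22a1, chr15:71629098-71629104, minus strand: ttggggggaaggtggttatcctTGGTGCTt
Lamc1, chr1:155067199-155067205, minus strand: aagaaactattatctgacacacTGGTGCTa

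From ES to ELA cells 1 of the 41 matrix genes measured had a total RNA difference of 1 or more on the log2 scale and 3 fell at least 2-fold, against 4.41% and 4.54% of all measured genes, and the median change was −0.09 against 0.00. The 1 was Col4a3, not well above background in ES cells, whose bound is under 2-fold, so 0 were shown to rise 2-fold. These counts moved with the processing, to 5 higher and 8 lower with the scanner's processed intensity after quantile normalization and to 5 and 7 with its scaling to the 75th percentile. More genes passed 2-fold at the next step. From ELA to NPC cells 16 of 42 rose and 8 were lower by 1 or more, against 10.3% and 9.55% of all genes, with a median of 0.26. Without Col4a3, again bounded under 2-fold, 7 fell. From NPC to NPC/Neu cells 5 of 42 rose and 5 fell, against 5.36% and 3.96%, with a median of −0.02 against −0.03. Over the whole course from ES to NPC/Neu cells 16 of 45 rose and 10 fell, against 16% in either direction, with a median of 0.47 against −0.05. Most matrix genes have long transcripts. Among all genes with a transcript of at least 5000 bases, 805 of 2628 (30.6%) rose over that course and 301 fell. Their median was 0.35. From ELA to NPC cells 414 of 2574 such genes (16.1%) rose and 234 fell, with a median of 0.09. Of the matrix genes of that length, 14 of 34 (41.2%) rose at that step, with a median of 0.42. Another 6 were lower by 1 or more, Col4a3 among them. These comparisons share arrays at each stage, so they are not independent of each other. In bulk samples, fewer cells of a type and less RNA per cell cannot be told apart.

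**Figure D1:**
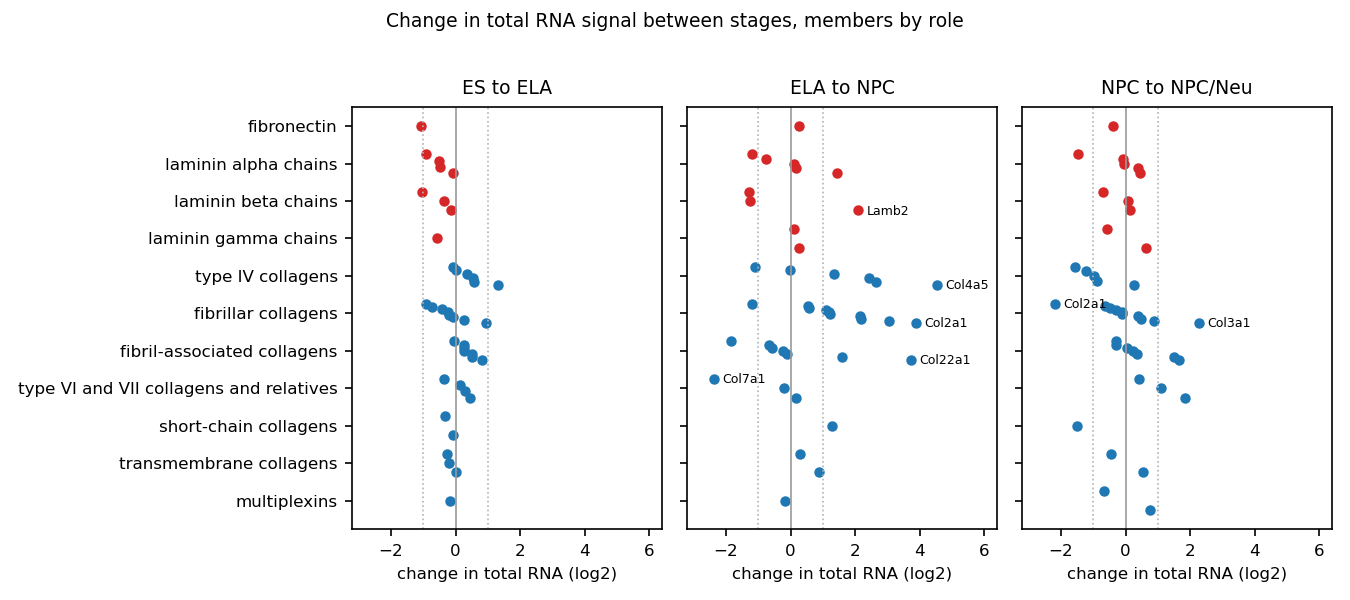
Change in total RNA signal (log2, x axis) of matrix genes between neighbouring stages, by the role of its protein (rows). Each point is 1 gene from 1 array per stage, dotted lines mark 2-fold, laminin and fibronectin genes are red and collagens blue. Type IV and fibrillar collagens spread to the right from ELA to NPC cells, up to 4.54 for Col4a5, and Col7a1 stood lowest at that step at −2.37.

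Fibronectin, encoded by Fn1 (chr1:71632094-71699774, minus strand, mm9), had log2 total RNA signals of 15.58, 14.52, 14.79 and 14.41 in ES, ELA, NPC and NPC/Neu cells. It was highest in ES cells and lay within 0.38 at the 3 later stages. The fall from ES to ELA cells was 1.06 on the log2 scale, to 0.480 of the ES signal.

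The laminin chains split into those that were highest in ES cells and those that were highest in neural cells. Lama5 (chr2:179911078-179960564, minus strand), the alpha chain of the laminin that sustains pluripotent cells in culture, had total RNA signals of 14.60, 14.52, 13.32 and 11.85 in ES, ELA, NPC and NPC/Neu cells. Lama1 (chr17:68046605-68171985, plus strand), the alpha chain of the first embryonic basement membranes, went the other way, with 13.06, 12.59, 14.03 and 14.43. From ES to NPC/Neu cells Lama5 thus fell by 2.74 and Lama1 rose by 1.36 on the log2 scale.

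The beta chains were split in the same manner. Lamb1, the partner of both of these alpha chains, had 14.46, 14.33, 13.04 and 12.34 and fell by 2.12 over the course. Lamb2, the beta chain of the neuromuscular synapse and the kidney filter, had 11.00, 10.65, 12.75 and 12.83. Its rise of 2.10, or 4.28-fold, came at the step from ELA to NPC cells, where Lamb1 fell by 1.30.

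Lamb3, a beta chain of skin epithelium, had total RNA signals of 9.07 and 8.04 in ES and ELA cells and was not well above background in NPC cells, so it was at least 2.38-fold higher in ELA than in NPC cells. Lama3, an alpha chain of the same tissue, had 8.69, 8.19, 7.44 and 7.39, a fall of 1.30 over the course. Its probe in a coding exon went from 8.86 in ES to 8.15 in NPC/Neu cells, while that in the 3′ UTR started at 8.52 and was not well above background in NPC and NPC/Neu cells. Both genes were highest in ES cells.

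Among the remaining laminin genes, Lamc1, the gamma chain shared by most laminins, had 13.82, 13.25, 13.37 and 12.79 and fell by 1.03 over the course, with no single step reaching 2-fold. Lamc3, a gamma chain known from the retina and brain, was not well above background in ES or ELA total RNA and reached 8.01 in NPC/Neu cells, at least 2.27-fold above ES cells. Lama2, the alpha chain of muscle, and Lama4, that of vessels, were dim: Lama2 was well above background in total RNA only in NPC cells (6.77) and NPC/Neu cells (7.20), and Lama4 had 7.85 in ES cells, was not well above background in ELA cells, and had 7.07 and 6.99 afterwards.

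Of the 6 type IV collagen genes, 4 rose at least 2-fold from ELA to NPC cells. Col4a5 (chrX:137909928-138123778, plus strand), a chain of the kidney filter membrane, had total RNA signals of 7.34, 7.89, 12.42 and 11.56, and its rise of 4.54, or 23.2-fold, was the largest of all matrix genes at that step. Col4a2, a chain of the ubiquitous type IV network, had 9.84, 9.85, 12.51 and 10.93, and its partner Col4a1 had 10.30, 10.65, 12.01 and 10.76. Both were therefore highest in NPC cells and fell again to NPC/Neu cells, by 1.58 and 1.24.

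Col4a6, which pairs with Col4a5, was read by 2 probes that differed. The probe in its 3′ UTR gave 7.12, 8.14, 12.52 and 11.20, close in shape to Col4a5, while the probe in a coding exon gave 8.77, 8.88, 9.34 and 8.70. Their mean rose by 2.42 from ELA to NPC cells, a rise that lay almost wholly in the first probe. Col4a3 was well above background only in ELA total RNA (7.28), at least 1.45-fold above ES cells, and Col4a4 stayed between 6.78 and 7.04.

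The type IV genes lie in pairs on the chromosome. Col4a1 and Col4a2 are head to head on chromosome 8 with starts 21 bases apart in the annotation, Col4a3 and Col4a4 on chromosome 1 with starts 72 bases apart, and Col4a5 and Col4a6 on the X chromosome with starts 1309 bases apart. The first and the third pair each had both genes highest in NPC cells, whereas both genes of the second pair were near background throughout.

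Of the 11 fibrillar collagens, 10 were measured from ELA to NPC cells, and 7 of these rose and 1 fell at least 2-fold, with a median of 1.19. Col2a1, the main collagen of cartilage that is also transcribed in the early neural tube, had 11.10, 11.36, 15.27 and 13.09. It rose 15.0-fold from ELA to NPC cells and fell by 2.18 to NPC/Neu cells, where it was still 3.96-fold above its ES signal. Col11a1, its partner in the cartilage fibril, was not well above background in ELA cells and had 10.08 in NPC cells, at least 8.29-fold higher.

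Col5a1, a chain that starts fibrils, had 10.01, 9.92, 12.08 and 11.97, a step up of 2.16 that was kept. Col3a1, a collagen of stretchy connective tissue, had 7.17 in ES cells, was not well above background in ELA cells, and had 9.13 and 11.41 in NPC and NPC/Neu cells, so it rose by 2.28 at the last step as well. The chains of type I collagen, the collagen of bone and skin, differed from each other. Col1a2 had 8.96, 9.92, 11.13 and 10.66 and Col1a1 had 8.83, 7.93, 9.11 and 8.79, so that Col1a2 ended 1.70 above its ES signal and Col1a1 −0.04 from it. Col5a3 was the fibrillar gene that fell, from 8.70 in ES and 8.51 in ELA to 7.32 and 7.20.

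Among the other collagens the largest change over the course was that of Col22a1, a collagen of tissue junctions, which had 7.60, 8.11, 11.84 and 13.49 and rose 59.4-fold from ES to NPC/Neu cells. Col7a1, the anchoring fibril of the skin, had 12.09, 12.55, 10.18 and 11.27 and fell by 2.37 from ELA to NPC cells. Col9a2, a fibril-associated chain, had 10.73, 10.98, 9.16 and 8.87. Col6a1, a chain of beaded filaments, had 7.87, 8.01, 8.17 and 10.00, so it rose only at the last step, by 1.83.

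Col18a1, a basement membrane proteoglycan and the precursor of endostatin, had 14.90, 14.74, 14.57 and 13.89 over its 2 probes and fell by 1.00 over the course. One probe went from 14.86 to 14.37 and the other from 14.94 to 13.42. Col8a2, a short-chain collagen, had 7.21, 7.12, 8.40 and 6.89, and after a rise of 1.28 it fell by 1.51. Both steps lay mainly in its probe in the 3′ UTR, with 7.66, 7.66, 9.68 and 7.02. Col14a1, a fibril-associated chain, had 6.97, 7.78, 7.13 and 7.19 as the mean of 2 probes that disagreed. The one in the 3′ UTR was not well above background in ES cells (6.77) and had 8.52 in ELA cells, while the one in a coding exon had 7.17 and 7.04. The change from ES to ELA cells was 0.82 for the mean, −0.12 with only probes above background, 1.76 with the brightest probe and 2.20 with the processed intensity, so that its direction is not settled. Col12a1, another such chain, was well above background in total RNA only in NPC/Neu cells (8.15), at least 2.64-fold above NPC cells.

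**Figure D2:**
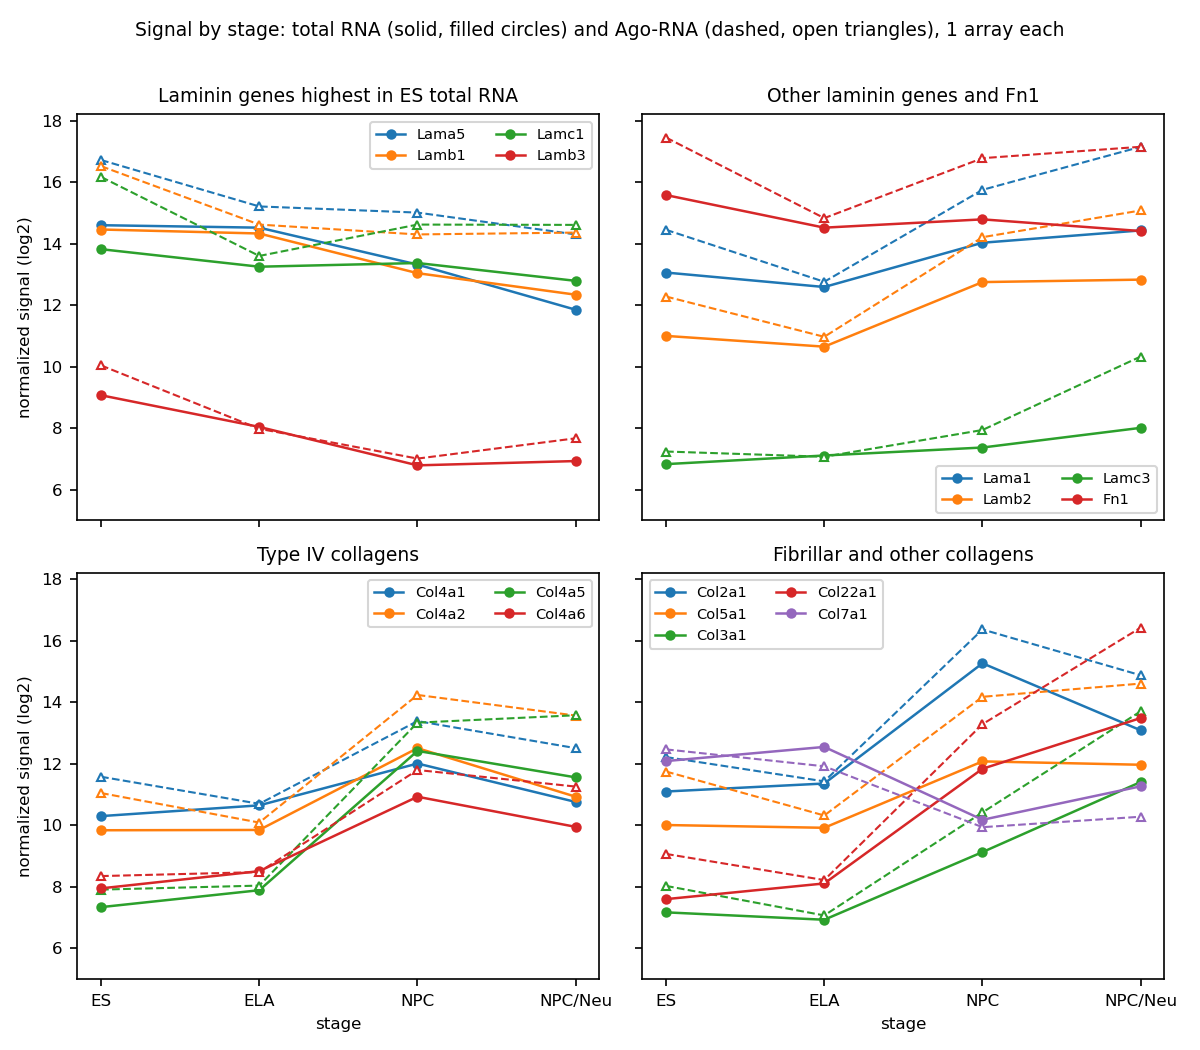
Normalized log2 signal (y axis) of named matrix genes at the 4 stages (x axis), with total RNA as solid lines and filled circles and Ago–RNA as dashed lines and open triangles, 1 array per point. Values of different genes come from different probes and are not comparable in height. The dashed line runs above the solid line in ES, NPC and NPC/Neu cells for most genes and close to it in ELA cells, with Col7a1 as an exception.

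Ago enrichment (E) is the Ago–RNA signal over the total RNA signal of the same stage, in log2. Since all arrays were brought to 1 distribution, an E of 0 is about that of the median gene. The median matrix gene was richer in Ago–RNA than the median gene at every stage and least so in ELA cells. Of the 46 measured in ES cells 16 had an E of at least 1 (34.8%), against 9.37% of all measured genes, and their median was 0.72 against 0.04. In ELA cells 0 of 35 reached 1, against 3.8%, with a median of 0.15 against −0.03, the highest being Col11a1 (0.84) and Lama5 (0.69) and the lowest Col4a3 (−0.84) and Col7a1 (−0.62). Of these, Col11a1 was not well above background in ELA total RNA nor Col4a3 in ELA Ago–RNA, which leaves Col11a1 at least 1.8-fold enriched and Col4a3 at least 1.32-fold depleted. In NPC cells 18 of 40 reached 1 (45%), against 5.33%, with a median of 0.84 against 0.01, and in NPC/Neu cells 28 of 45 (62.2%), against 10.9%, with a median of 1.48 against 0.04. At no stage did a measured matrix gene have an E of −1 or lower, whereas 10.5%, 3.32%, 5.79% and 11.6% of all genes did in ES, ELA, NPC and NPC/Neu cells. Such values were also rare among all genes with a transcript of at least 5000 bases. There they were found in 28 of 2568, 11 of 2483, 24 of 2565 and 32 of 2627 genes, so their absence is not particular to matrix genes.

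**Figure D3:**
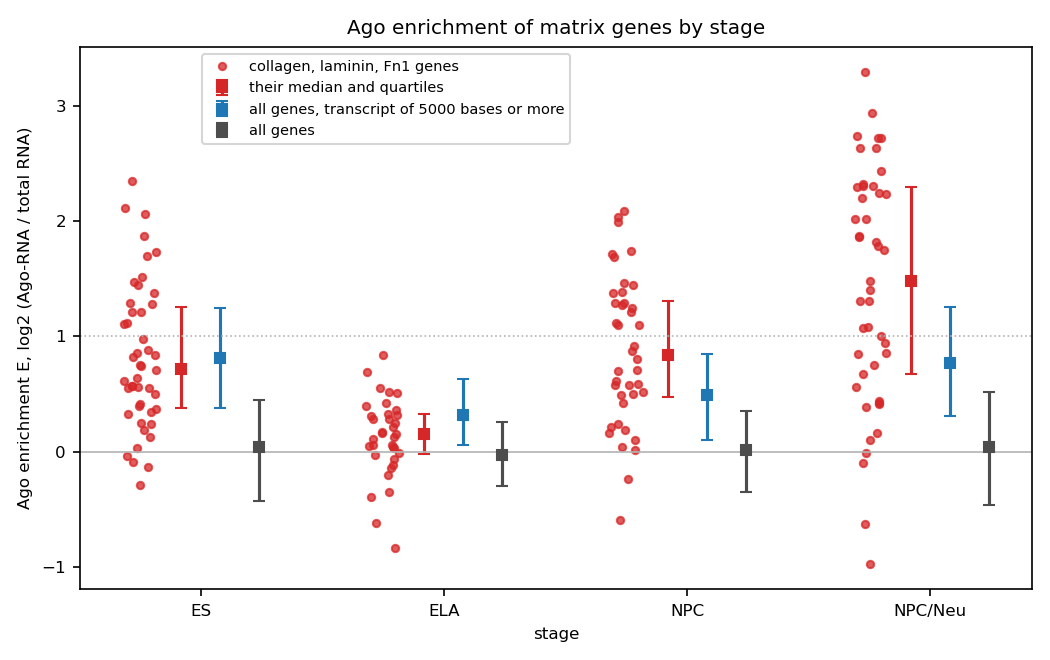
Ago enrichment E (Ago–RNA over total RNA, log2, y axis) at the 4 stages (x axis). Points are measured matrix genes, squares with bars are the median and quartiles of those genes (red), of all genes with a transcript of at least 5000 bases (blue) and of all genes (grey), the dotted line marks an E of 1. The median of the matrix genes was 0.72, 0.15, 0.84 and 1.48 in turn, beside 0.81, 0.32, 0.49 and 0.77 for the long transcripts.

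Transcript length moved with E and has to be read beside these values. The longest annotated transcript of the matrix genes had a median of 6048 bases, from 2924 for Col9a2 to 11511 for Col12a1, against 2541 over the 20051 genes with a length, and 41 of the 53 were at least 5000 bases long. Across genes, which are not independent replicates, Spearman's rho of E and transcript length was 0.58, 0.35, 0.36 and 0.48 in ES, ELA, NPC and NPC/Neu cells over all genes and 0.30, 0.40, 0.27 and 0.32 over the matrix genes. Among all genes of at least 5000 bases the median E was 0.81, 0.32, 0.49 and 0.77 at the 4 stages. The matrix genes of that length had 0.82, 0.19, 1.10 and 1.82. They thus stood at the level of other long transcripts in ES cells, below it in ELA cells and above it in NPC and NPC/Neu cells. An E of at least 1 was reached by 38.7%, 8.26%, 17.3% and 37.6% of all genes of that length. Among the matrix genes of that length the shares were 40.5%, 0%, 52.9% and 70.3%. The 12 shorter matrix genes had lower medians, 0.55, −0.06, 0.50 and 0.85, over the 9, 7, 6 and 8 of them that were measured. The part of transcript length in the enrichment was not tested further.

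The course of E over the 4 stages, each from its own pair of arrays, was similar across most matrix genes. Of the 27 well above background on all 8 arrays, 24 had their lowest E in ELA cells (88.9%, against 31.4% of the 18635 such genes) and 21 their highest in NPC/Neu cells (77.8%, against 27.4%). All 21 also had the lowest in ELA cells, a course shown by 15.9% of all genes. The median E of the 27 was 1.12, 0.16, 1.10 and 1.82 in ES, ELA, NPC and NPC/Neu cells. The spread of E over all measured genes ran the same way, with an SD of 0.82, 0.56, 0.67 and 0.93. The shares over all genes, whose median E is about 0, are therefore no matched baseline for a set with E mostly above 0. The part of this spread in the course was not tested.

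Fn1 had Ago–RNA signals of 17.45, 14.83, 16.78 and 17.15, and hence E values of 1.87 (ES), 0.31 (ELA), 1.99 (NPC) and 2.74 (NPC/Neu). While its total RNA moved little after the ELA stage, its Ago–RNA signal therefore moved by more than 2 on the log2 scale. The laminin chains of the embryonic basement membrane, which went different ways in total RNA, all had their lowest E in ELA cells. Lama5 had an E of 2.12, 0.69, 1.69 and 2.44 and Lama1 of 1.38, 0.17, 1.72 and 2.72. Lamb1 had 2.06, 0.28, 1.27 and 2.02, Lamb2 had 1.28, 0.32, 1.46 and 2.24, and Lamc1 had 2.35, 0.36, 1.25 and 1.82. The E of Lamc1 in ES cells was the highest of any matrix gene there.

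Lama3 departed from this course, with an E of 0.74, 0.55, 0.01 and −0.01 and so no higher value after the ELA stage. Lamc3 had an E of 0.41 in ES, 0.58 in NPC and 2.32 in NPC/Neu cells, the highest in NPC/Neu cells as in the chains above. In ELA cells neither of its arrays was well above background, with a measured E of −0.04, and in ES cells its total RNA was not, which leaves it at least 1.33-fold enriched there.

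Collagens that rose in total RNA in NPC cells were mostly enriched in Ago–RNA there as well. Col4a2 had an E of 1.21, 0.25, 1.74 and 2.64, Col4a1 had 1.29, 0.05, 1.38 and 1.75, and Col4a5 had 0.57, 0.16, 0.92 and 2.02. Col2a1 had 1.12, 0.06, 1.10 and 1.79, and Col22a1 had 1.47, 0.11, 1.45 and 2.94. Col5a1 had 1.73, 0.40, 2.09 and 2.64, the last but one being the highest E of any matrix gene in NPC cells.

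The highest E of all was that of Col12a1 in NPC/Neu cells, 3.30, with a total RNA signal of 8.15 and an Ago–RNA signal of 11.45. Type I and III collagens were similar to each other there, with an E of 2.20 for Col1a1, 2.31 for Col1a2 and 2.31 for Col3a1. Over the 10 measured fibrillar collagens the median E in NPC/Neu cells was 2.25, and 8 of the 10 reached 1. Over the type IV collagens it was 1.75, with 4 of 5 reaching 1, and over the 8 measured fibril-associated collagens it was 0.84, with 3 reaching 1.

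Many collagens did not reach an E of 1 in NPC/Neu cells. Among the measured type VI and VII collagens and relatives 2 of 4 reached it, and among the multiplexins 1 of 2. Among the short-chain and the transmembrane collagens it was 0 of 2 each. Those that follow are examples. Col7a1 had an E of 0.37, −0.62, −0.24 and −0.98, the lowest of any measured matrix gene in NPC/Neu cells. Col20a1, a fibril-associated collagen, had −0.59 in NPC and −0.10 in NPC/Neu cells, although its total RNA signals there were 8.48 and 8.85. Col11a2, a fibrillar chain on the cartilage fibril, had 0.10 and 0.16 in the same cells, apart from its partner Col11a1 with 2.04 and 2.72. Probes of Col15a1 whose starts lie 12 bases apart gave 8.09 and 6.60 in NPC/Neu total RNA, so its E of −0.63 there rests on probes that disagree. Probes of Col4a6 differed in E as in total RNA, with 1.02, 0.19, 1.22 and 2.15 for the one in the 3′ UTR and −0.21, −0.25, 0.53 and 0.48 for the one in a coding exon. Among the 4 probes of Col25a1, a membrane collagen of neurons, those well above background on both arrays had an E of −0.90 and 0.66 in NPC/Neu cells.

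From ES to ELA cells the E of 14 of 34 measured matrix genes fell by at least 1 and that of 0 rose by 1, against 6.2% and 7.61% of all genes, with a median of −0.86 against −0.01. The largest falls were those of Lamc1 (2.00 on the log2 scale), Lamb1 (1.78) and Fn1 (1.56), and the highest changes those of Col4a4 (0.27), Col25a1 (0.13) and Col11a1 (0.00). From ELA to NPC cells 11 of 32 rose by at least 1 and 0 fell by 1, against 1.71% and 3.08%, with a median of 0.81, led by Col5a1 (1.70), Fn1 (1.68) and Lama1 (1.54), and the lowest change was that of Lama3 (−0.54). From NPC to NPC/Neu cells 11 of 40 rose and 0 fell, against 1.93% and 4.03%, with a median of 0.68, led by Col12a1 (2.17, with a total RNA signal not well above background in NPC cells), Lamc3 (1.74) and Col6a1 (1.54), and the lowest change was that of Col7a1 (−0.75). Neighbouring changes share the arrays of the stage between them. For all genes of at least 5000 bases the median changes were −0.47, 0.20 and 0.32, beside −0.96, 0.89 and 0.75 for the matrix genes of that length.

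Under a stricter rule a messenger was called released when its Ago–RNA signal lay above the dim part of the distribution (over 7.82 to 7.84 on the log2 scale) and its E went from at least 2 to at most 0.5, with a change of at least 1.5, and loaded when it went the opposite way. Of the 32 matrix genes bound in this sense in ES or ELA cells, Lamb1 and Lamc1 were released at that step, against 0.512% of all bound genes, and 0 were loaded, against 0.348%. From ELA to NPC cells 1 of 36 was loaded, Col5a1, against 0.0803%, and 0 were released, against 0.236%. From NPC to NPC/Neu cells 0 of 39 were released or loaded, against 0.0828% and 0.104%. Lama5 missed the first call because its E in ELA cells was 0.69 and its change in E was −1.44, and Fn1 missed the second because its E in NPC cells was 1.99.

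Matrix genes with and without a match to the miR-29 seed were close to each other in E in ES and ELA cells. The median E was 0.71 with and 0.74 without a match in ES cells, 0.12 and 0.21 in ELA cells, 1.10 and 0.65 in NPC cells, and 1.61 and 1.40 in NPC/Neu cells. Over all genes it was 0.35 and 0.14, 0.12 and 0.00, 0.21 and 0.09, and 0.39 and 0.18, in the same order. In both sets the genes with a match were longer. Among those measured in ES cells the median transcript was 6615 bases with and 5784 without a match in the matrix genes, whose 3′ UTRs had 1378 and 767 bases, and 4126 and 2699 bases in all genes, whose 3′ UTRs had 2168 and 827 bases. The part of length in the split was not tested. Both groups of matrix genes thus lay above both groups of all genes in ES, NPC and NPC/Neu cells. Fn1, Lama1, Lama5 and Lamb1, with an E of 1.87, 1.38, 2.12 and 2.06 in ES cells, held no miR-29 match, while Col7a1, with 2 matches, had the lowest E in NPC/Neu cells. Col5a1, with 4 matches, had the highest E in NPC cells. In NPC/Neu cells the 7 measured matrix genes with a let-7 match had a median E of 2.20 against 1.44 for the 38 without, and the 5 with a miR-294 match had 0.86 against 1.61 for the 40 without. In ES cells the medians were 0.82 and 0.64 for let-7 and 0.69 and 0.73 for miR-294. Over all genes in NPC/Neu cells they were 0.34 with and 0.19 without a let-7 match. For miR-294 they were 0.34 and 0.18, the opposite order to the matrix genes. The matrix genes with a let-7 match had longer 3′ UTRs in NPC/Neu cells, 1423 against 850 bases, and some, such as Col1a1 and Col3a1, also held a miR-29 match. These groups are small and the differences were not tested. The levels of the miRNAs themselves were not measured on these arrays.

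**Figure D4:**
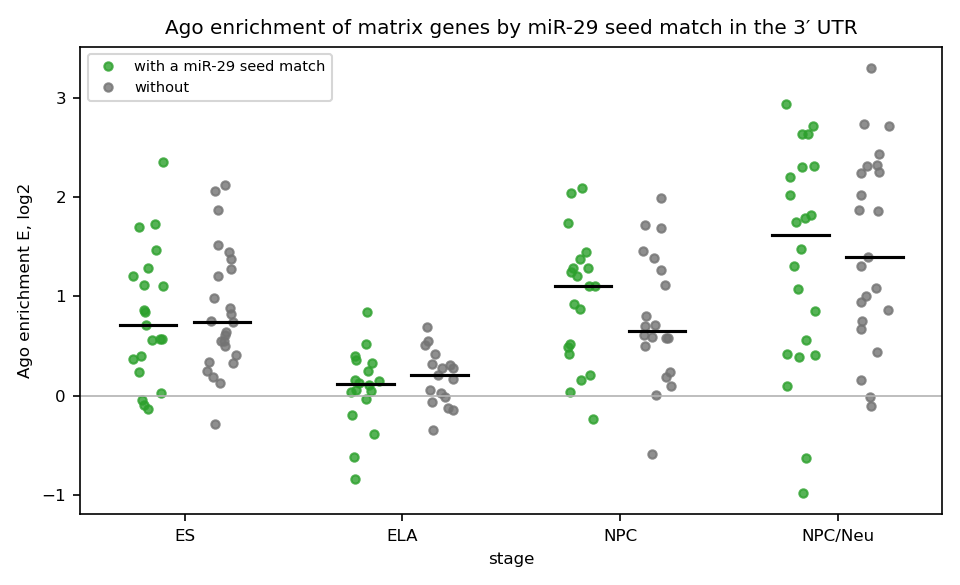
Ago enrichment E (log2, y axis) of the measured matrix genes at the 4 stages (x axis), split by a match to the miR-29 seed in the 3′ UTR (green with, grey without). Each point is 1 gene and black lines are medians, which were 1.10 with and 0.65 without a match in NPC cells and 1.61 and 1.40 in NPC/Neu cells.

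Genes that act with the matrix genes were taken from lists by function. Of 18 further basement membrane components (nidogens, perlecan, agrin, fibulins and others), 5 of 14 measured rose and 0 fell at least 2-fold in total RNA from ES to ELA cells, and 5 of 17 rose and 1 fell from ELA to NPC cells. The shares over all genes were 4.41% and 4.54% at the first step and 10.3% and 9.55% at the next. Nid2, a nidogen that links laminin to type IV collagen, had 13.39, 13.10, 11.01 and 9.81 and fell by 3.59 over the course, whereas Fras1, which holds epithelia to the membrane, had 7.74, 9.52, 10.98 and 11.35. Their median E was 0.79, 0.25, 0.67 and 1.23 in ES, ELA, NPC and NPC/Neu cells, so that this list also had its lowest median in ELA cells and its highest in NPC/Neu cells. Hspg2, the proteoglycan perlecan, had an E of 1.94 in ES cells and Sparc, a small collagen-binding protein, one of −0.12.

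The enzymes and chaperones that make collagen had a lower median E than the matrix genes at each stage. Their median was also lowest in ELA cells and highest in NPC/Neu cells. Of the 27 on this list, 10 of 25 measured rose and 0 fell from ELA to NPC cells, against 10.3% and 9.55% of all genes, and 6 of 25 fell and 0 rose from NPC to NPC/Neu cells, against 3.96% and 5.36%. Serpinh1, the collagen chaperone HSP47, had 12.27, 12.55, 15.39 and 15.42, and Loxl2, a crosslinking enzyme, had 9.19, 9.95, 13.08 and 11.34. Their median E was 0.21, −0.09, 0.16 and 0.45, and 0 of 25, 0 of 23, 1 of 25 and 6 of 26 measured reached 1 in ES, ELA, NPC and NPC/Neu cells, against 9.37%, 3.8%, 5.33% and 10.9% of all genes. The E of Serpinh1 was −0.70, −0.49, −0.36 and 0.07 in the same order.

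Among 27 matrix receptors, 4 of 25 measured rose and 3 fell from ELA to NPC cells, against 10.3% and 9.55% of all genes. Itga6 and Itgb1, which form a laminin receptor, had total RNA signals of 15.24, 15.73, 14.80 and 15.24 and of 11.52, 11.18, 11.37 and 11.20, so neither changed 2-fold at any step. Gpr56, a receptor of collagen III in the brain, had 9.58, 9.86, 13.73 and 14.38. The median E of the receptors was 0.50, 0.15, 0.38 and 0.89. Among 13 matrix proteases and inhibitors 3 of 11 rose and 2 fell from ELA to NPC cells, against 10.3% and 9.55% of all genes. Their median E was 0.22, −0.13, 0.16 and 0.30. The medians of the receptors and of this list were thus also lowest in ELA cells and highest in NPC/Neu cells.

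Markers of other cells that make much matrix were also read, since such cells could be in the cultures. Of 12 markers of primitive and parietal endoderm, the source of the thick laminin and type IV collagen membrane of the embryo, 7, 5, 8 and 6 were well above background in ES, ELA, NPC and NPC/Neu total RNA, and their summed signal was 11.04, 11.14, 12.36 and 11.46 on the log2 scale. It was thus highest in NPC cells. Gata6, Thbd and Afp were well above background at no stage, while Pdgfra had 6.50, 6.86, 9.93 and 7.63 and Ttr had a signal above background in NPC cells only, 10.32. From ELA to NPC cells 4 of 8 measured rose and 1 fell at least 2-fold, against 10.3% and 9.55% of all genes. From NPC to NPC/Neu cells 0 of 8 rose and 3 fell, against 5.36% and 3.96%. Dab2, with 7.66, 8.50, 10.18 and 8.41, was also highest in NPC cells. Other markers on this list ran otherwise. Amn had 9.35, 9.29, 7.20 and 7.90, Gata4 had 7.64, 7.66 and 6.87 before it was no longer well above background, and Foxa2 had 6.76, 8.01, 9.55 and 10.10. Of 10 mesenchyme and fibroblast markers 6, 7, 10 and 9 were well above background. Their summed signal was 16.02, 15.14, 15.11 and 14.53, in ES cells mostly that of Tagln. From ELA to NPC cells 5 of 10 rose and 1, Thy1, fell at least 2-fold, against 10.3% and 9.55% of all genes. Fbn1, with 7.56, 7.35, 9.62 and 10.19, and Acta2, with 12.70, 11.24, 13.44 and 12.20, were among those that rose. Prrx1, a limb mesenchyme factor, and Lum, a collagen-binding proteoglycan, were above background only in NPC and NPC/Neu cells. Thy1 was highest in the early stages, with 12.42, 13.92, 8.13 and 7.22, Tagln was highest in ES cells with 15.70, 14.02, 14.33 and 13.92, and Dcn was well above background from ELA cells on, with 9.07, 9.01 and 9.60. Of 5 endothelial markers 3, 3, 2 and 2 were well above background, with a summed signal of 11.46, 10.83, 12.27 and 12.17, and Cdh5 and Emcn were so at no stage. Of 5 neural crest markers 4, 5, 4 and 5 were, with a summed signal of 13.06, 13.20, 11.69 and 13.62. The part of such cells in the collagen signals was not tested.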

How the data were processed

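Total RNA and Ago–RNA of 4 stages were measured on 8 Agilent SurePrint G3 Mouse arrays in 1 color (Cy3), all on 1 slide, with 50 ng of RNA labeled according to the labels. The files the authors deposited hold raw scanner output, namely each spot's mean intensity, its median local background and a processed intensity, not normalized between arrays. The file headers name Feature Extraction 10.7.3.1 and the submitters' processing notes name version 9.1 and limma. Per array, 53.45 to 61.22% of the 59305 spots other than controls were well above background, no spot of a matrix gene was saturated. Precision is limited by there being 1 array per condition.

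Background was corrected with normexp (offset 50) in limma 3.58.1 (R 4.3.3), 125 to 523 irregular spots per array were left out, and log2 intensity was quantile normalized over the 8 arrays, a procedure tested on simulated data. Repeat spots were averaged per probe and the probes of a gene were averaged. Folds against a dim array are lower bounds, with the dim signal raised to the lowest signal of a probe well above background on that array. Coordinates, UTRs and transcript lengths come from GENCODE vM1 on NCBIM37 (mm9, the build of the arrays). The limit for bound RNA was set on each Ago–RNA array at 3 SD above the mean of the lower of 2 fitted Gaussians (mclust 6.1.1).

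Named genes were Fn1, the laminin genes, the type IV collagens, Col1a1, Col1a2, Col2a1, Col3a1 and Col18a1, the 3 highest and 3 lowest values in each comparison, genes called released or loaded, and genes whose probes differed by over 1 in E. Others (such as Col5a3, Col11a2, Col20a1 and the genes of the functional lists) were chosen after their values were seen. One member is counted but not reported here. The members and lists were chosen with earlier results of these data known. Alternatives were a normexp offset of 16, the processed intensity with quantile or 75th percentile scaling, separate normalization of Ago–RNA and total RNA, probes above background only, and the brightest probe per gene.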

Additional observations from a re-analysis of the deposited data

Results flagged for a closer look

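In 2 of the matrix genes reported here E had opposite signs at a pair of stages, each with both values more than 2 SD of repeat spots away from 0. With 1 array per condition the differences were not tested. Col7a1 had an E of 0.37 in ES and −0.98 in NPC/Neu cells, a difference of 1.36. Col16a1, a fibril-associated collagen, had −0.39 in ELA and 0.56 in NPC/Neu cells, a difference of 0.95.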

How the results depend on the processing

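Medians of the matrix genes kept their sign under all 6 alternatives for E at each stage, for the changes of E and for the changes of total RNA, except the median change of total RNA from NPC to NPC/Neu cells, which was −0.02 in the report and 0.05 with the processed intensity scaled to the 75th percentile. The lowest E in ELA cells held for 24 genes and the highest in NPC/Neu cells for 21 or 22 under every alternative, out of 27 genes (26 where only probes above background were used). With the processed intensity and quantile normalization, the median E was 1.32 in ES (31 genes at 1 or more), 1.18 in NPC and 2.04 in NPC/Neu cells, its change from ES to ELA cells −1.07, the median change of total RNA from ELA to NPC cells 0.60, and 5 genes rose and 8 fell 2-fold in total RNA from ES to ELA cells and 12 rose from NPC to NPC/Neu cells. With 75th percentile scaling, which moved the median E of all genes to between −0.34 and −0.17, the median E was 0.98 in NPC and 1.86 in NPC/Neu cells, 5 genes rose and 7 fell from ES to ELA cells, 12 rose from NPC to NPC/Neu cells, and E rose by 1 in 7 genes at that last step. With an offset of 16 the median E was 0.88 in ES and 1.74 in NPC/Neu cells, and 2 genes rose and 5 fell from ES to ELA cells. With Ago–RNA and total RNA normalized separately, which moved the median E of all genes to between 0.13 and 0.16, that of the matrix genes was 0.37 in ELA cells, 1.09 in NPC cells and 1.65 in NPC/Neu cells. With only probes above background it was 0.92 in ES and 1.79 in NPC/Neu cells and 0 genes rose from ES to ELA cells, and with the brightest probe it was 1.75 in NPC/Neu cells and 4 rose from ES to ELA cells. The count of genes that rose from ES to ELA cells thus depended on the processing. The cause was not tested. No named gene's value past 2-fold changed sign, while 442 values of single genes moved by more than the SD between repeat spots and 990 did not. No paired analysis was possible because each condition has 1 array. Dim genes limit these values, since 5 matrix genes were well above background on no array.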
